A study of Homo sapiens with 6 samples.

Results

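The genes described here are 36 established transcriptional targets of p53, chosen by gene symbol from the 38041 genes of the expression table. They were chosen with earlier results of these data known, so shares of this list beside all genes are descriptions and not tests. All 36 were found in the table, and 35 of them passed the filter on low values, an FPKM (fragments per kilobase of transcript, scaled to library depth) of 1 or more in 3 or more of the 6 libraries, which left 12281 genes for the test. HCT116 is a human colorectal carcinoma line with wild-type p53. RNA was sequenced from HCT116 cells carrying an EPHX2 expression construct (overEXP) and from cells carrying the empty vector (NC). Each line gave 3 libraries. According to the paper, cells infected with the lentivirus were selected with puromycin. It describes the EPHX2 vector as lentiviral and the NC vector only as a negative control or empty vector. Whether the NC cells passed through the same infection and drug selection is not stated. The titles call the NC cells empty vector, while other label fields call them untreated. Nothing in the sources says that the 3 libraries of a group came from separate infections or cultures, so p-values speak only of the variation among these libraries, which may be technical.

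p53 is a transcription factor that binds a pair of short repeats near its target genes and raises their transcription after DNA damage and other stresses. Its targets stop the cell cycle, start apoptosis, repair DNA, change metabolism, or limit p53 itself. MDM2 is the best known of the limiting genes, because its product marks the p53 protein for destruction and so closes a negative feedback loop. Many targets also have a basal expression that depends on p53 in unstressed cells with the wild-type protein. p53 is controlled mainly through the stability and modification of its protein, which RNA measurements do not see.

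The p53 response element is a pair of adjacent 10-base units, each with a fixed C and a fixed G on either side of 2 central bases. It was searched within 2500 bases on either side of the start site of the canonical transcript in GENCODE v44 on GRCh38. A match had no spacer between the units, the C and G of both units in place, and at most 2 mismatches to the p53 consensus among the other 16 letters. The unit reads the same on both strands, so 1 search covers both. A match was found near 17 of the 36 genes (47.2%), against 756 of 20044 protein-coding genes (3.77%). The 36 were chosen as known p53 targets, so a higher share than over all genes was built into their choice. A match without any mismatch was found near 2 of the 36, PLK2 and ZMAT3, and near 13 of all protein-coding genes (0.0649%). These matches are shown because 17 of the 36 genes carry one, and because some genes that carry one fell in overEXP and others did not pass the test. In each sequence, written 5′ to 3′ on the strand of the gene, the capitals mark the C and G of each unit.
PLK2, chr5:58462274-58462293, minus strand, 0 mismatches: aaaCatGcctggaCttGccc
ZMAT3, chr3:179070188-179070207, minus strand, 0 mismatches: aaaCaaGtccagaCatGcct
DDB2, chr11:47214969-47214988, plus strand, 1 mismatch: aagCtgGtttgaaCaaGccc
GADD45A, chr1:67686775-67686794, plus strand, 1 mismatch: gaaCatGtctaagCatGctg
CCNG1, chr5:163437926-163437945, plus strand, 1 mismatch: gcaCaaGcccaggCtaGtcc
CDKN1A, chr6:36676449-36676468, plus strand, 2 mismatches: gaaCatGtcccaaCatGttg
AEN, chr15:88621306-88621325, plus strand, 2 mismatches: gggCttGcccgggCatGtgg
BTG2, chr1:203303642-203303661, plus strand, 2 mismatches: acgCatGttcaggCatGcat
MDM2, chr12:68808923-68808942, plus strand, 2 mismatches: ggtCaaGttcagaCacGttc
FAS, chr10:88991309-88991328, plus strand, 2 mismatches: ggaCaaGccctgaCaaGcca
PMAIP1, chr18:59899549-59899568, plus strand, 2 mismatches: gggCttGtttaccCaaGtct
The match of PLK2 began at position -2207 from its start site, that of CDKN1A at -2265, that of BTG2 at -1877, that of PMAIP1 at -447 and that of AEN at -34. The matches of MDM2 (746 bases into the gene), FAS (511), GADD45A (1574) and ZMAT3 (1602) lay in introns of the canonical transcript, and that of DDB2 started at -5 and reached into exon sequence. A match is a description of these letters and not a measured binding site, and no match says only that the letters are not in the window. More matches lay downstream than upstream of the start site, as the plot of match positions shows.

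**Figure D1:**
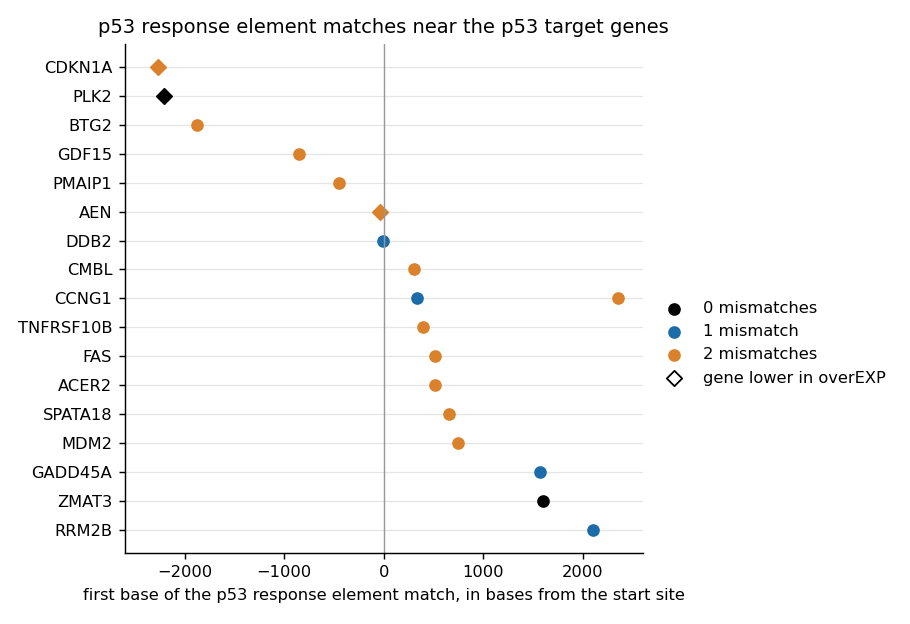
Positions of p53 response element matches relative to the start site of each target gene (horizontal axis, bases from the start site), with 1 line per gene, colours for the number of mismatches and diamonds for genes that fell in overEXP. The matches ran from -2265 for CDKN1A to 2351 for the second match of CCNG1.

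The libraries differed in ways that touch all genes. EPHX2 itself was listed at an FPKM of 1.53, 1.96 and 1.5 in the NC libraries and at 157, 162 and 181 in the overEXP libraries, a log2 fold change of 5.98 ± 0.09 (SE, adjusted p by limma = 1.63e-07, and an exact two-sided permutation p of 0.1, as small as 3 libraries against 3 can give). Summed FPKM was 277441 to 282322 in NC and 288471 to 321825 in overEXP, and mitochondrially encoded genes took 29.6 to 34.6% of it in NC and 34.9 to 39.9% in overEXP. A set of 129 transcripts reached an FPKM of 1 in overEXP replicate 2 and stayed under 0.1 everywhere else, against 0 to 7 such transcripts in each of the other libraries. The summed FPKM of 6 markers of differentiated colon epithelium was 264.8 in that library and 0.06 to 0.2 in the others, that of 4 fibroblast markers was 9.62 against 2.31 to 3.36, and epithelial markers summed to 654 to 918.5 over all 6 libraries. Of the epithelial markers, EPCAM was 110 in overEXP replicate 2 and 71.6 to 83.3 in the others, and CDH1 was 19.2 against 9.23 to 13.8. The epithelial markers KRT8 and KRT18 lay within the range of the other libraries. Leukocyte markers summed to 5.41 to 8.38 and endothelial markers to 0.04 to 0.36. The part of this library's extra transcripts in the results was not tested, and values without the library are given further on. Among all genes tested, 366 fell and 154 rose in overEXP. The split was 350 and 331 after median-of-ratios scaling, 406 and 306 after quantile normalization, and 869 and 95 after rescaling to TPM, a length-corrected unit with the same sum in every library.

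Target genes were lower in the overEXP cells wherever they passed the test. Of the 35 tested, 7 fell (20%, where 2.98% of all genes tested fell) and 0 rose (where 1.25% of all genes tested rose) at an adjusted p under 0.05 by limma. The 7 were the cell cycle arrest genes CDKN1A, PLK2, PLK3 and SFN, the cell death genes TP53I3 and AEN, and FDXR, a mitochondrial reductase. Their mean FPKM was 30.2 to 46.3% lower in overEXP than in NC. At an unadjusted p under 0.05, 17 of the 35 (48.6%) had a negative and 0 a positive log2 fold change, against 2012 (16.4%) and 805 (6.6%) of all genes tested. In 20 genes every overEXP library was below every NC library (57.1%, against 21.7% of all genes tested), and in 1 gene, DDB2, every overEXP library was above every NC library (2.9%, against 9.23% of all genes tested). The median log2 fold change of the 35 was -0.21 and that of all genes tested -0.05. The 35 were also more abundant, with a median NC FPKM of 13.5 against 5.6 for all genes tested, and the part of level in these shares was not tested. The log2 fold change was negative for 28 of the 35 (80%) and for 61.6% of all genes tested. In bulk RNA, fewer cells expressing a gene and less RNA of it per cell cannot be told apart.

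**Figure D2:**
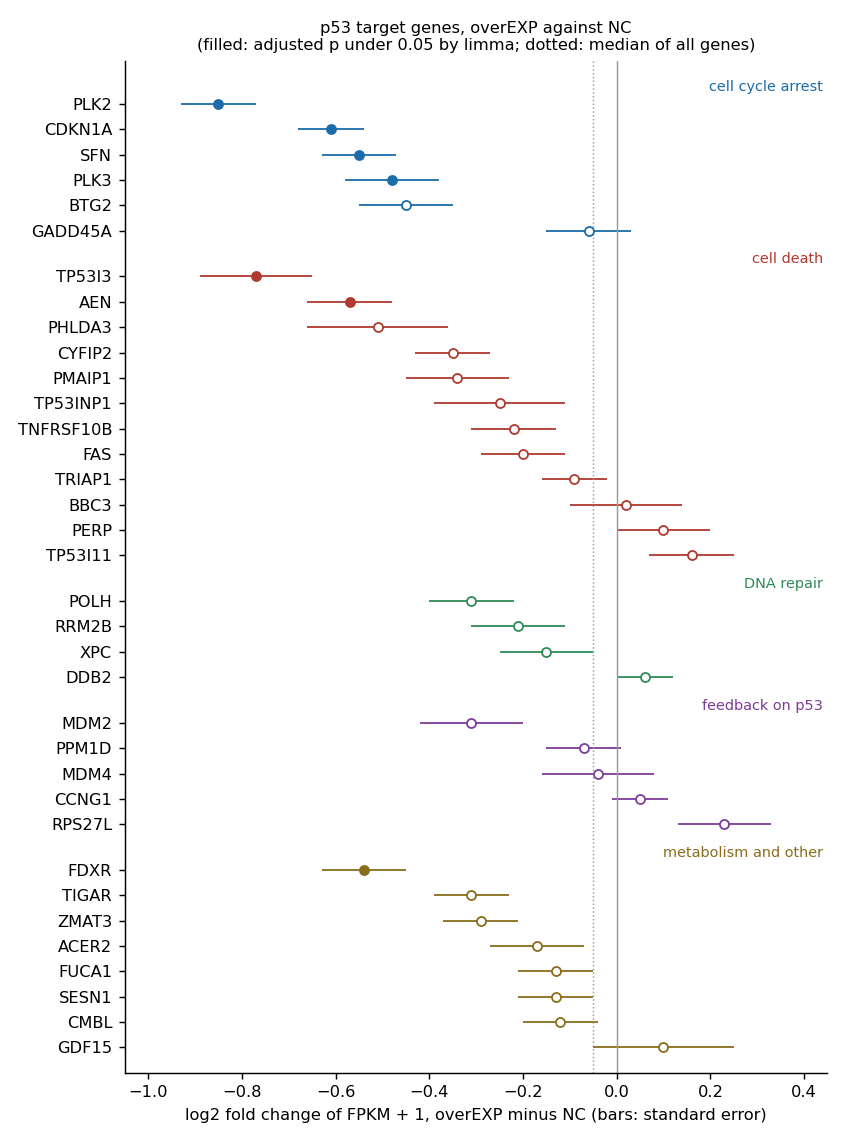
Log2 fold change of FPKM + 1 (overEXP minus NC, horizontal axis) of the 35 target genes tested, grouped by function, with bars for the standard error. Filled points passed an adjusted p of 0.05 by limma: 4 of 6 arrest genes, 2 of 12 death genes, 0 of 4 repair genes, 0 of 5 feedback genes and 1 of 8 metabolic and other genes. Of all genes tested, 2.98% fell and 1.25% rose.

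The arrest genes gave the most calls, with 4 of 6 falling (66.7%, where 2.98% of all genes tested fell). Their median log2 fold change was -0.51, against -0.05 for all genes tested. They were also the most abundant group, with a median NC FPKM of 33.1, against 8.0 to 12.5 in the other groups. Because the scale understates fold changes of low genes, levels may enter this contrast, which was not tested. CDKN1A encodes p21, the inhibitor of cyclin-dependent kinases through which p53 stops the cell cycle. It lies at chr6:36676460-36687337 on the plus strand, has 3 exons in its canonical transcript, and its matched element is the one shown above at -2265. In NC its FPKM was 183 in replicate 1, 169 in replicate 2 and 169 in replicate 3, and in overEXP, in the same order as used throughout, 107, 115 and 118, so that the groups did not overlap. The mean fell from 173 ± 8.14 (SD, n = 3) to 114 ± 5.66 (SD, n = 3), a log2 fold change of -0.61 ± 0.07 (SE, adjusted p by limma = 0.0097). Exons of the antisense gene DINOL cover 4.9% of the CDKN1A exon length, and the strand setting of the authors' counting was not given in the sources used here. PLK2, a polo-like kinase induced by p53, lies at chr5:58453982-58460139 on the minus strand and had the most negative log2 fold change of the 35. PLK2 was listed at 33.8, 32.6 and 31.9 FPKM in NC and at 18.4, 15.9 and 19.1 in overEXP. Its mean was 32.8 ± 0.92 in NC and 17.8 ± 1.69 in overEXP (SD, n = 3 each), a log2 fold change of -0.85 ± 0.08 (SE, adjusted p by limma = 0.00786). The 3 overEXP libraries lay close together, and each was far below the lowest NC library.

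SFN and PLK3 were the other arrest genes that fell. SFN encodes 14-3-3 sigma, which holds cells at the entry to mitosis, and its single-exon gene lies at chr1:26863149-26864456 on the plus strand. It was the most abundant of the 36, with FPKM of 259, 246 and 225 in NC and 173, 159.6 and 165 in overEXP (log2 fold change -0.55 ± 0.08, SE, adjusted p by limma = 0.0178). PLK3, a second polo-like kinase, lies at chr1:44800377-44805990 on the plus strand. Its FPKM was 13.2, 13.2 and 14.2 in NC and 8.21, 9.1 and 11.04 in overEXP (log2 fold change -0.48 ± 0.10, SE, adjusted p by limma = 0.0479). PLK3 therefore sat just inside the threshold, and BTG2, an antiproliferative gene at chr1:203305491-203309602, sat just outside it. The FPKM of BTG2 was 16.3, 16.2 and 15.9 in NC and 9.88, 13.1 and 11.8 in overEXP (log2 fold change -0.45 ± 0.10, SE, adjusted p = 0.0523), again with no overlap. GADD45A, a stress gene of the G2 checkpoint, was the exception among the 6. Its FPKM ranged from 28.4 to 35.96 over the 6 libraries with overlapping groups, and its log2 fold change was -0.06 (adjusted p = 0.736). The element matched in GADD45A has fewer mismatches than that of CDKN1A.

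**Figure D3:**
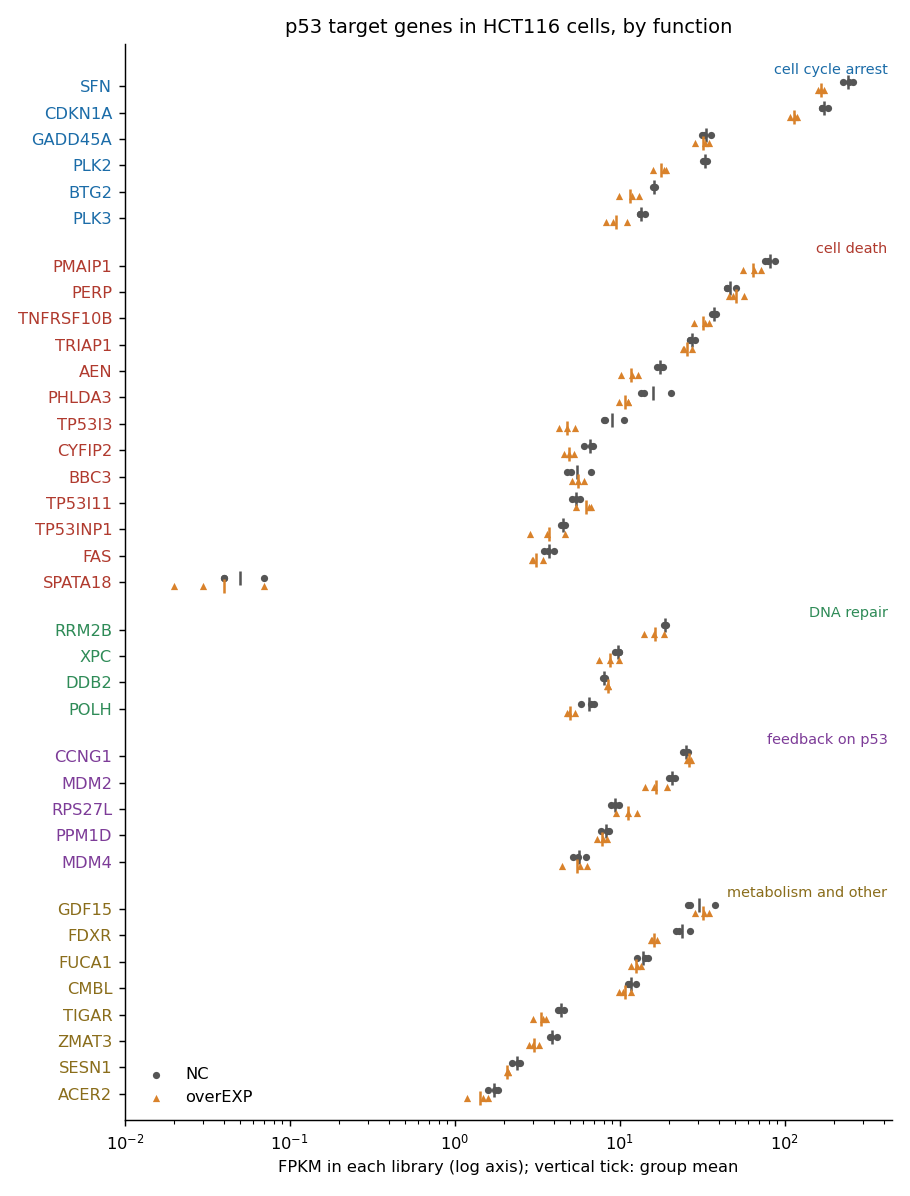
FPKM of the 36 target genes in each library (horizontal log axis), with circles for NC libraries, triangles for overEXP libraries, vertical ticks for group means and genes ordered by function. For CDKN1A the NC libraries lie at 169 to 183 and the overEXP libraries at 107 to 118.

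Among the 13 cell death genes, 12 were tested and 2 fell (16.7%, where 2.98% of all genes tested fell). In this group 0 rose (1.25% of all genes tested rose), and the median log2 fold change was -0.24. TP53I3, an oxidoreductase of the quinone type linked to reactive oxygen species in apoptosis, lies at chr2:24077433-24085861 on the minus strand. Its FPKM was 10.7, 8.11 and 8.07 in NC and 4.76, 5.39 and 4.26 in overEXP, with NC replicate 1 standing above the other NC libraries. The mean fell from 8.94 ± 1.48 to 4.8 ± 0.56 (SD, n = 3 each), a log2 fold change of -0.77 ± 0.12 (SE, adjusted p by limma = 0.0227). AEN, an exonuclease that aids DNA fragmentation in apoptosis, lies at chr15:88621337-88632281 on the plus strand. AEN was listed at 18.4, 17.7 and 16.8 FPKM in NC and at 10.1, 11.9 and 12.8 in overEXP (log2 fold change -0.57 ± 0.09, SE, adjusted p by limma = 0.0241). In both genes the highest overEXP library was below the lowest NC library.

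The better known death effectors, the BH3-only and receptor genes, did not pass the test. PMAIP1 encodes NOXA, a BH3-only protein that blocks the BCL2 relative MCL1. Its FPKM was 87.3, 79.2 and 76.3 in NC and 55.6, 64.8 and 72.1 in overEXP (log2 fold change -0.34 ± 0.11, SE, adjusted p = 0.11). BBC3, which encodes PUMA, had 6.74, 5.09 and 4.79 in NC and 5.17, 6.05 and 5.6 in overEXP (log2 fold change 0.02 ± 0.12, SE, adjusted p = 0.92), so the overEXP values of BBC3 lay within its NC range, while the groups of PMAIP1 did not overlap. FAS, a death receptor, had 3.50, 3.68 and 4.01 in NC and 2.98, 2.93 and 3.42 in overEXP (log2 fold change -0.20 ± 0.09, SE, adjusted p = 0.215). PHLDA3, an inhibitor of AKT signalling, had 20.4, 14.0 and 13.5 in NC and 11.2, 9.92 and 11.2 in overEXP (log2 fold change -0.51 ± 0.15, SE, adjusted p = 0.0974), and its spread in NC came from replicate 1. CYFIP2, a regulator of the actin cytoskeleton, had 6.11, 6.88 and 6.74 in NC and 4.61, 4.92 and 5.31 in overEXP (log2 fold change -0.35 ± 0.08, SE, adjusted p = 0.0571). None of these 5 passed the test. The remaining death genes ran from a log2 fold change of -0.25 for the stress gene TP53INP1 through -0.22 for the death receptor TNFRSF10B and -0.09 for the apoptosis inhibitor TRIAP1 to 0.10 for the desmosomal gene PERP and 0.16 for TP53I11, and their adjusted p ranged from 0.177 to 0.552. SPATA18, a gene of mitochondrial quality control listed at 0.02 to 0.07 FPKM, was under the minimum and was not tested.

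No repair gene passed the test, where 2.98% of all genes tested fell and 1.25% rose. With shares this low, 0 of 4 does not set the repair genes apart. At an unadjusted p under 0.05 by limma, 1 of the 4 (25%) was lower, against 16.4% of all genes tested. POLH, a DNA polymerase that copies past ultraviolet damage, had 5.79, 6.66 and 6.98 FPKM in NC and 4.90, 4.76 and 5.39 in overEXP (log2 fold change -0.31 ± 0.09, SE, adjusted p by limma = 0.0892). XPC, which recognises damage in nucleotide excision repair, had 9.39, 9.96 and 9.92 in NC and 7.46, 9.89 and 8.79 in overEXP (log2 fold change -0.15 ± 0.10, SE, adjusted p = 0.396). Its groups overlapped, and antisense exons cover 24.6% of the XPC exon length. DDB2 works beside XPC and was the only one of the 35 with every overEXP library above every NC library. Its FPKM was 8.15, 7.92 and 8.06 in NC and 8.43, 8.48 and 8.44 in overEXP (log2 fold change 0.06 ± 0.06, SE, adjusted p = 0.567), a difference that turned to -0.06 after rescaling to TPM. RRM2B, a ribonucleotide reductase subunit that supplies nucleotides for repair, ranged from 14.1 to 18.9 FPKM (log2 fold change -0.21, adjusted p = 0.259).

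A matched element at the start site thus occurred in a gene that fell and in a gene that did not pass the test. The RefSeq promoters of AEN and DDB2 (250 bases before to 50 after the start, GRCh38.p14) are shown for that contrast, with the 20 matched bases in capitals, on the plus strand at chr15:88621090-88621389 and chr11:47214724-47215023.
AEN: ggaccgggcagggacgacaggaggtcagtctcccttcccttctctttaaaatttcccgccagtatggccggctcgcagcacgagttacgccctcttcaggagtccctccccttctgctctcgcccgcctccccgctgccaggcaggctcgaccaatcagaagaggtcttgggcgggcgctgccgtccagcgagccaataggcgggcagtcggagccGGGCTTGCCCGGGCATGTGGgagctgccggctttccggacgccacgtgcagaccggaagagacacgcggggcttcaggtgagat
DDB2: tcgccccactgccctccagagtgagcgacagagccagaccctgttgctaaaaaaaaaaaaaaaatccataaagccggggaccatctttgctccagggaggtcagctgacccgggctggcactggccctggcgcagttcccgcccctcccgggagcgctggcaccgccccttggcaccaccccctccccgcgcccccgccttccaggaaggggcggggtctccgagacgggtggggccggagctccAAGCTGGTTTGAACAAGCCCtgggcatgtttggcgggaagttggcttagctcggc
Of 35116 RefSeq promoters of this length, 100 (0.285%) held such a match, and of the 30 target genes with a promoter in that set, 4 did (13.3%), namely AEN, DDB2, FAS and MDM2. The first share counts promoters and the second counts genes. Some genes have several promoters and were counted if any of them matched, so the shares are not like measures. The second share also reflects the choice of known p53 targets. In the wider window around the start site, 3 of the 7 genes that fell (42.9%) and 13 of the 28 that did not pass the test (46.4%) had a match.

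The feedback genes, whose products act on p53 or on MDM2, had a median log2 fold change of -0.04, against -0.05 for all genes tested. Of the 5, 0 passed the test in either direction, where 2.98% of all genes tested fell and 1.25% rose. With shares this low, 0 of 5 does not set the feedback genes apart. At an unadjusted p under 0.05 by limma, 1 of the 5 (20%) was lower, against 16.4% of all genes tested. MDM2 lies at chr12:68808177-68845544 on the plus strand, with antisense exons over 11.1% of its exon length. Its FPKM was 19.8, 20.7 and 21.6 in NC and 14.2, 16.2 and 19.5 in overEXP, and the groups did not overlap, although the highest overEXP library came close to the lowest NC library. The log2 fold change of MDM2 was -0.31 ± 0.11 (SE, adjusted p by limma = 0.144), and without overEXP replicate 3 its adjusted p was 0.0496. MDM4, which binds p53 beside MDM2, gave -0.04 (adjusted p = 0.858), and the phosphatase gene PPM1D gave -0.07 (adjusted p = 0.644). CCNG1, which encodes cyclin G1, was listed at 24.2 to 26.9 FPKM and gave 0.05 (adjusted p = 0.65). RPS27L, a ribosomal protein that acts on MDM2, gave the highest log2 fold change of the 35, 0.23 (adjusted p = 0.241), with overlapping groups. Its near copy RPS27 rose (log2 fold change 0.77, adjusted p = 0.0136), and reads of the pair may have been divided between them. Without NC replicate 2 or NC replicate 3 the adjusted p of RPS27 was 0.0744 and 0.0674.

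FDXR was the 1 gene of the 8 metabolic and other genes that fell (12.5%, where 2.98% of all genes tested fell). It encodes ferredoxin reductase, which passes electrons by way of ferredoxin to mitochondrial cytochrome P450 enzymes, and lies at chr17:74862497-74873031 on the minus strand. Its FPKM was 26.7, 22.9 and 21.9 in NC and 15.7, 15.5 and 16.9 in overEXP (log2 fold change -0.54 ± 0.09, SE, adjusted p by limma = 0.0234), without overlap. TIGAR, which lowers glycolytic flux, had 4.59, 4.23 and 4.31 in NC and 3.43, 2.98 and 3.59 in overEXP (log2 fold change -0.31 ± 0.08, SE, adjusted p = 0.0834). ZMAT3, an RNA-binding protein whose gene carries the other element without a mismatch, had 3.84, 3.76 and 4.14 FPKM in NC and 2.83, 2.97 and 3.23 in overEXP (log2 fold change -0.29 ± 0.08, SE, adjusted p = 0.0836). In both genes with a perfect match every overEXP library was below every NC library, and only PLK2 passed the test. The same order of the libraries was seen in 57.1% of the 35 genes and in 21.7% of all genes tested. The part of the element in this was not tested. The sestrin gene SESN1 (-0.13), the ceramidase gene ACER2 (-0.17), the hydrolase gene CMBL (-0.12) and the lysosomal fucosidase gene FUCA1 (-0.13) had adjusted p from 0.337 to 0.427. GDF15, a secreted stress cytokine, had overlapping groups between 25.9 and 37.8 FPKM and gave 0.10 (adjusted p = 0.72).

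The 28 genes that did not pass the test had log2 fold changes from -0.51 to 0.23, of which 21 were negative (61.6% of all genes tested were). In 13 of the 28, every overEXP library was below every NC library (as in 21.7% of all genes tested). The overEXP libraries did not contribute equally. Over the 35 genes, the median log2 ratio to the NC mean was -0.34 in overEXP replicate 1, -0.21 in replicate 2 and -0.13 in replicate 3, against -0.13, -0.05 and 0.01 over all genes tested. Replicate 1 of overEXP was the lowest of its group in 23 of the 35 genes (60.3% of all genes tested) and replicate 3 the highest in 21 (54.2% of all genes tested). Among the NC libraries, replicate 1 was the highest in 22 of the 35 genes (42.1% of all genes tested).

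The wider pathway was compared next. These lists were also chosen with earlier results of these data known, so their shares are descriptions and not tests. In a list of genes that regulate p53, 37 were tested and 0 fell (where 2.98% of all genes tested fell). At an unadjusted p under 0.05, 6 (16.2%) were lower, near the 16.4% of all genes tested. In this list 1 gene rose (2.7%, where 1.25% of all genes tested rose). It was RPL23 (log2 fold change 0.51, adjusted p by limma = 0.048), a ribosomal protein that binds MDM2. A further 62 p53 targets gave 7 that fell (11.3%, where 2.98% of all genes tested fell). In the same list 1 rose (1.6%, near the 1.25% of all genes tested that rose), and the median was -0.17, against -0.05 for all genes tested. Those that fell included the phosphatase genes DUSP1 (-0.74, adjusted p = 0.00786) and DUSP5 (-0.68, 0.0136), the matrix proteoglycan gene VCAN (-0.87, 0.00799), the serpin gene SERPINB5 (-0.49, 0.0117), the matrix gene THBS1 (-0.48, 0.0293) and the growth factor gene TGFA (-0.36, 0.0378). The 1 that rose, S100A2, was listed at 15.7, 14.1 and 11.8 FPKM in NC and at 49.8, 27.6 and 25.3 in overEXP (1.19, adjusted p = 0.0403). Over the 6 analyses that left out a library, DUSP1 and VCAN passed in all. DUSP5 (0.0744 and 0.0674) and SERPINB5 (0.0814 and 0.0733) did not pass without NC replicate 2 or 3. THBS1 and S100A2 passed only without overEXP replicate 1 (0.0513 to 0.137 and 0.0502 to 0.14 otherwise), and TGFA and RPL23 only without overEXP replicate 3 (0.0637 to 0.153 and 0.0575 to 0.161 otherwise). After median-of-ratios scaling the adjusted p was 0.0564 for S100A2 and 0.0737 for RPL23, and after rescaling to TPM it was 0.0542 for RPL23. After quantile normalization it was 0.0555 for TGFA, and after rescaling without mitochondrially encoded genes 0.0581. Several of these, such as DUSP1 and TGFA, are also targets of other pathways. Of 39 genes repressed through p21, chiefly mitosis and replication genes, 0 fell and 0 rose by limma (2, or 5.1%, lower and 7, or 17.9%, higher at an unadjusted p under 0.05, against 16.4% and 6.6% of all genes tested). Their median log2 fold change was 0.09 with 30 positive values, but it depended on the scaling, at -0.05 after rescaling to TPM and 0.16 after median-of-ratios scaling.

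**Figure D4:**
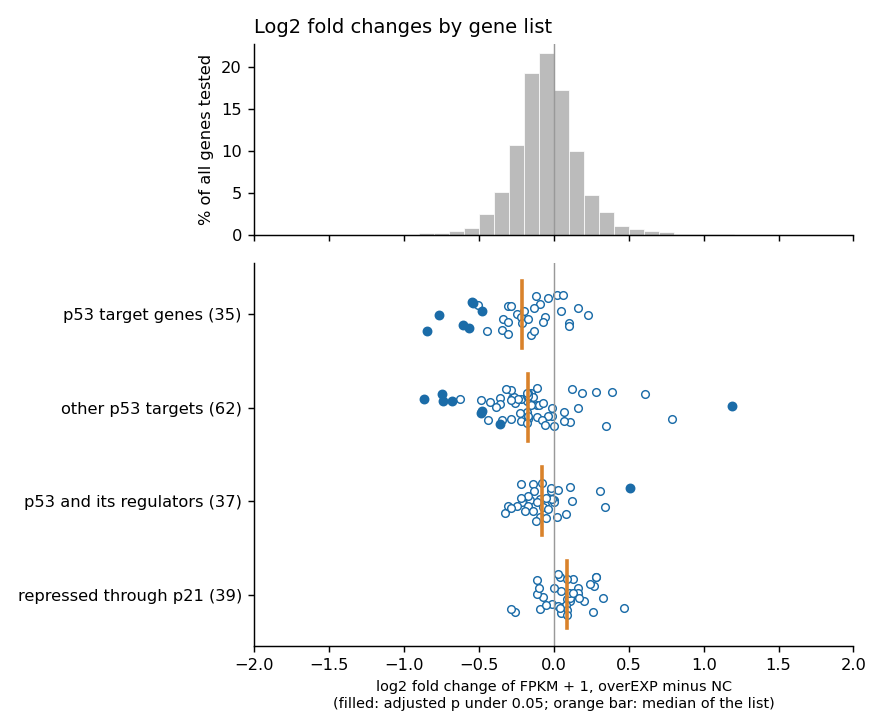
Log2 fold change of FPKM + 1 (overEXP minus NC) for all genes tested (grey histogram, percent of genes) and for each gene of 4 lists, with filled points past an adjusted p of 0.05 and an orange bar at the list median. The medians were -0.21 for the 35 target genes, -0.17 for other p53 targets, -0.08 for regulators and 0.09 for genes repressed through p21 (-0.05 after rescaling to TPM).

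The calls of the 7 genes depended on the analysis. All 7 had a negative log2 fold change in each of the 13 alternative analyses. In all 7, every overEXP library was below every NC library. A negative sign was therefore fixed in advance with a library left out, another pseudocount, no filter or the replicate block. Only the rescaled and normalised alternatives could have changed it. PLK2 passed in 12 of 13, failing only when no filter on low values was used (adjusted p = 0.053). CDKN1A passed in 10, and without NC replicate 2 or NC replicate 3 its adjusted p was 0.0647 and 0.056, and with no filter 0.0613. Without NC replicate 1, 2 or 3 the adjusted p was 0.0559, 0.102 and 0.0597 for SFN, 0.0797, 0.105 and 0.0827 for AEN, 0.0523, 0.0895 and 0.0703 for FDXR, and 0.0519, 0.0753 and 0.0709 for TP53I3. Without overEXP replicate 2, the library with the colon markers, 3 of the 7 passed (CDKN1A, PLK2 and TP53I3, where 0.62% of all genes tested fell), and SFN, AEN and FDXR had 0.0614, 0.0704 and 0.0775. TP53I3 had 0.0518 without overEXP replicate 3. PLK3 passed only without overEXP replicate 3 among the 6 analyses that left out a library, with 0.0733 to 0.165 in the other 5. Rescaled to the same sum without mitochondrially encoded genes, 6 of the 35 fell (2.18% of all genes tested fell), with PLK3 at 0.0622. Rescaled to TPM, which moved the median of all genes to -0.17 and that of the 35 to -0.34, 11 fell, with BTG2, CYFIP2, PHLDA3 and PMAIP1 added (7.06% of all genes tested fell).

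**Figure D5:**
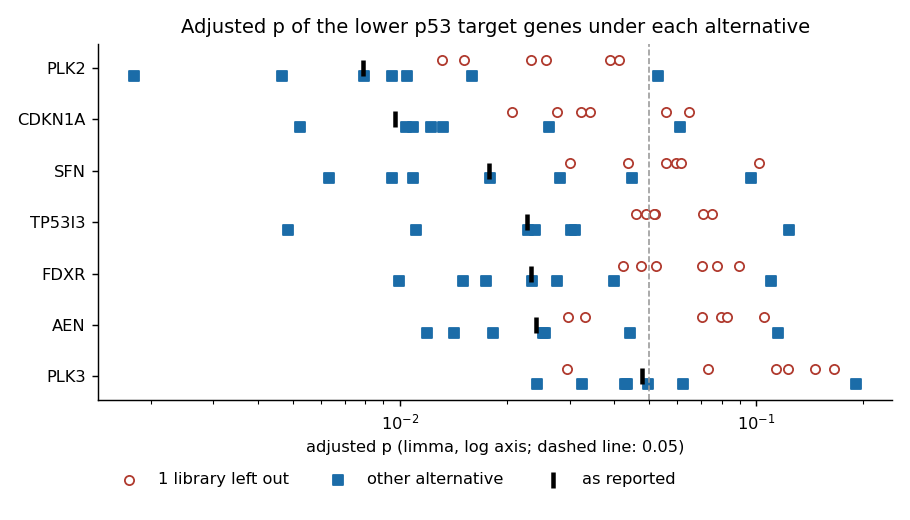
Adjusted p (horizontal log axis, dashed line at 0.05) of the 7 target genes that fell, as reported (black bars), with 1 library left out (open circles) and in the other alternatives (squares). PLK2 crosses the line in 1 of 13 alternatives, with no filter on low values.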

How the data were processed

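RNA was sequenced from 3 NC and 3 overEXP HCT116 libraries. According to the sources, the authors ran FastQC, mapped reads with HISAT2 2.0.4 to GRCh38, assembled transcripts with StringTie and deposited FPKM per gene, normalised for transcript length and depth. The deposited fold change, p and q columns were not used. The FPKM are not whole multiples of 1 read, so depth is unknown and precision rests on the spread between libraries. Groups came from the sample titles. Genes reaching an FPKM of 1 in 3 or more libraries (12281) were compared on log2(FPKM + 1) by limma 3.58.1 in R 4.3.3, with a variance trend, no block, two-sided tests and Benjamini-Hochberg adjustment over all genes tested at 0.05. Fold changes on this scale understate those of low genes. The method was tested on simulated data. The pseudocount, filter, scaling, replicate block and each library left out were varied.

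The members and lists were chosen with earlier results of these data known. Values in all libraries were given for members past the threshold, for members whose groups did not overlap with an absolute log2 fold change of at least 0.3, and for MDM2, CDKN1A, BBC3, PMAIP1, FAS, XPC and DDB2. From the other lists, genes past the threshold were named, at most 8 per list, and some genes that this rule would name are not reported here. RPS27 was chosen as the paralog of RPS27L. Sequences came from GRCh38, with GENCODE v44 start sites, and from RefSeq promoters of GRCh38.p14 (30 of 36 members matched).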

Additional observations from a re-analysis of the deposited data

How the results depend on the processing

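Against the 7 target genes that fell as reported, the count was 7 with a pseudocount of 0.1, 7 after quantile normalization, 7 with the replicate block, 8 after median-of-ratios scaling, 11 after rescaling to TPM, 6 after rescaling without mitochondrially encoded genes (chosen after seeing the data) and 0 with no filter, where 38041 genes were tested and 2 fell and 3 rose among all. Leaving out 1 library gave 1 to 7. With no filter, other p53 targets gave 0 lower and 0 higher and regulators 0 higher. After rescaling to TPM, other p53 targets gave 13 lower, regulators 1 lower and 0 higher, genes repressed through p21 1 lower, and all genes 869 lower and 95 higher. Median-of-ratios scaling gave 0 higher regulators, 5 higher genes repressed through p21 and 331 higher among all genes. Quantile normalization gave 1 lower regulator, 1 lower and 3 higher genes repressed through p21 and 306 higher among all. The replicate block gave 213 lower among all genes and 5 lower of the other p53 targets, with THBS1 at an adjusted p of 0.0547 and TGFA at 0.0509. Whether the numbers shared by the libraries pair them is not known. Correlations of deviations from the group means were 0.358, -0.016 and 0.367 for the same numbers. They were -0.418 for NC replicate 3 with overEXP replicate 1 and -0.315 for NC replicate 1 with overEXP replicate 3. Replicate 2 of overEXP correlated more with NC replicate 3 (0.201) than with NC replicate 2. With 3 libraries a group the deviations depend on each other, so these values cannot decide whether the libraries are paired. With 1 library left out, other p53 targets gave 2 to 9 lower and 0 to 3 higher, regulators 0 to 1 lower and 0 to 1 higher, genes repressed through p21 0 to 1 higher, and all genes 20 to 386 lower and 23 to 201 higher. Log2 fold changes that changed sign were those of MDM4 (0.01 after median-of-ratios scaling and 0.01 after quantile normalization, -0.14 to 0.08 with a library left out), BBC3 (-0.10 in TPM, -0.06 to 0.15 with a library left out), GADD45A (0.01 after median-of-ratios scaling, -0.12 to 0.02 with a library left out), and in TPM GDF15 (-0.04), DDB2 (-0.06), CCNG1 (-0.09), PERP (-0.04) and GAPDH (-0.07, and -0.03 after quantile normalization). None of these genes passed the test as reported. The cause of these differences was not tested.

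Depth is unknown, and 3 libraries a group limit the precision. A change missed at an adjusted p of 0.05 is not shown to be absent.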
